A study of Homo sapiens with 15 samples.

Results

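Aminoacyl-tRNA synthetase genes were followed across 5 groups of PSN-1 cells, an established human line of pancreatic ductal adenocarcinoma. The 36 genes were chosen by name, 20 for cytosolic enzymes and 16 for mitochondrial enzymes (symbols ending in 2), out of 26485 genes listed in the deposited count tables, and all 36 were found under their older symbols and passed the filter on low counts. In the first experiment cells received siMondoA, an siRNA against the glucose-sensing transcription factor MondoA (gene MLXIP), siMLX, an siRNA against its DNA-binding partner MLX, or siControl. In the second, cells received SBI-477, a small molecule labelled as a MondoA inhibitor, or the vehicle DMSO. The sources used here give neither the dose of SBI-477 nor the siRNA sequences. All treatments lasted 72 hours, and each group had 3 libraries, 15 in all. All groups are 1 cell line with no rescue of the silenced gene, and the labels do not say whether libraries came from separate cultures. The p-values therefore reflect the spread of these libraries alone, and that spread may be technical.

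Each aminoacyl-tRNA synthetase joins 1 kind of amino acid to its tRNAs, the step that makes the genetic code readable by the ribosome. Human cells use a cytosolic set, of which several members sit in the multisynthetase complex, and a separate mitochondrial set that is encoded in the nucleus and imported. GARS (glycyl-tRNA synthetase) and KARS (lysyl-tRNA synthetase) serve both compartments. Uncharged tRNA is sensed by the kinase GCN2, which raises translation of the transcription factor ATF4. ATF4 and its C/EBP partners bind C/EBP-ATF response elements (CAREs) in genes of amino acid supply, and MondoA with MLX binds E-boxes.

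Library totals were 11227343 to 14731691 counts in the siRNA experiment and 23315440 to 30480362 counts in the drug experiment. The lowest count of any cytosolic member in a library was 634 (CARS, siMLX), and of any mitochondrial member 120 (PARS2, siMondoA). MLXIP had 22.6, 23.4 and 15.7 CPM (counts relative to the library total, after TMM scaling within an experiment) in siMondoA cells and 83.6, 65.8 and 88.7 CPM in siControl cells, and MLX had 11.9, 7.15 and 7.70 CPM in siMLX cells and 53.4, 58.8 and 53.0 CPM in siControl cells, so both knockdowns followed the labels. Keratins of ductal epithelium were abundant in every library (KRT8 at 532 CPM or more), while the leukocyte markers PTPRC, CD3E and MS4A1, the fibroblast marker THY1 and the acinar markers AMY2A and CELA3A were at 0.15 CPM or less. The summed levels of 6 ductal markers were 1658 to 1993 CPM in siMondoA cells and 1875 to 2797 CPM in siControl cells. Those of 6 fibroblast markers were 106 to 172 CPM in siMondoA cells and 182 to 262 CPM in siControl cells, mostly LUM. Those of 5 leukocyte markers were 59.3 to 63.4 CPM in siMondoA cells and 42.0 to 51.1 CPM in siControl cells, those of 4 endothelial markers 27.4 to 38.03 CPM in siMondoA cells and 21.1 to 25.0 CPM in siControl cells, and those of 4 acinar markers 27.1 to 43.8 CPM in siMondoA cells and 29.3 to 80.9 CPM in siControl cells. The fibroblast, leukocyte and endothelial sums thus did not overlap between these groups. Of single genes tested, 47.2% did not overlap either, and no such share was computed for sums. Members of a list went different ways. Of 5 fibroblast markers tested by edgeR, 3 had a positive log2 fold change. Of 2 leukocyte markers tested, 1 rose and 1 fell, and of 2 endothelial markers tested, 1 rose. The part of other cell types in the synthetase levels was not tested. In the drug table the labels of replicate 2 are in doubt: the authors' deposited fold changes matched the counts to a median absolute difference of 0.00446 (log2) only with replicate 2 of SBI-477 and of DMSO exchanged, against 0.195 as labelled. Libraries are named by their labels here, and drug calls are given also from replicates 1 and 3 alone.

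Per kilobase of exon, the cytosolic genes were the more abundant class in every group. Their median level was 53.1 CPM per kb in siMondoA cells, 39.9 in siMLX cells and 36.4 in siControl cells, against mitochondrial medians of 8.09, 9.88 and 9.74 CPM per kb in the same order of groups. In the drug experiment the cytosolic medians were 57.6 (SBI-477) and 58.6 (DMSO) CPM per kb and the mitochondrial ones 12.9 (SBI-477) and 11.4 (DMSO). IARS2, the mitochondrial isoleucyl-tRNA synthetase, was an exception among mitochondrial genes. It stood at 65.9 ± 5.75 CPM per kb in siMondoA cells and 78.9 ± 2.37 in siControl cells (SD, n = 3 each), the highest mean of all 36 genes in siControl cells, where EPRS (glutamyl-prolyl-tRNA synthetase, 73.9 ± 4.73) and KARS (73.0 ± 3.32) followed. Most neighbours in this order overlapped in their library ranges, 30 of 35 neighbouring pairs in siMondoA cells and 26 of 35 in siControl cells. VARS2 (valyl) was last in both, at 1.78 ± 0.130 in siMondoA cells and 1.88 ± 0.304 CPM per kb in siControl cells.

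After MondoA knockdown the cytosolic genes stood higher and the mitochondrial genes lower by their medians. Of the 20 cytosolic synthetase transcripts, 8 rose (AARS, CARS, GARS, IARS, MARS, TARS, WARS and YARS), 1 fell (QARS) and 11 were not called, by edgeR's quasi-likelihood test at a Benjamini-Hochberg adjusted p under 0.05 over all 13001 genes tested. Over those genes, 27.2% were called: 14.2% rose and 12.9% fell. Of the 16 mitochondrial transcripts, none rose, 2 fell (EARS2 and PARS2) and 14 were not called. The median log2 fold change was 0.46 over the cytosolic genes and -0.21 over the mitochondrial genes, beside 0.00 over all genes tested. The siMondoA libraries did not overlap the siControl libraries for 13 of 20 cytosolic genes, 11 of them above and 2 below, and for 6 of 16 mitochondrial genes, all below, where 47.2% of all genes tested showed no overlap. The mitochondrial counts of falls, and of non-overlaps in either direction, did not exceed the shares over all genes. In bulk RNA, a change in the mix of cells and a change in RNA per cell cannot be told apart. The calls of a rise rested on few libraries. No cytosolic gene was called risen without siMondoA replicate 2 or without any 1 of the 3 siControl libraries. Without siMondoA replicate 3, 1 was called risen, and without siMondoA replicate 1, 11 were. The cytosolic median moved less than the calls. It was 0.42, 0.50 and 0.48 without siControl replicate 1, 2 or 3. Without siMondoA replicate 1, 2 or 3 it was 0.61, 0.31 and 0.46. In the 4 settings with no cytosolic gene called risen, 13.2% to 17.3% of all genes tested were still called, against 27.2% with all libraries.

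**Figure D1:**
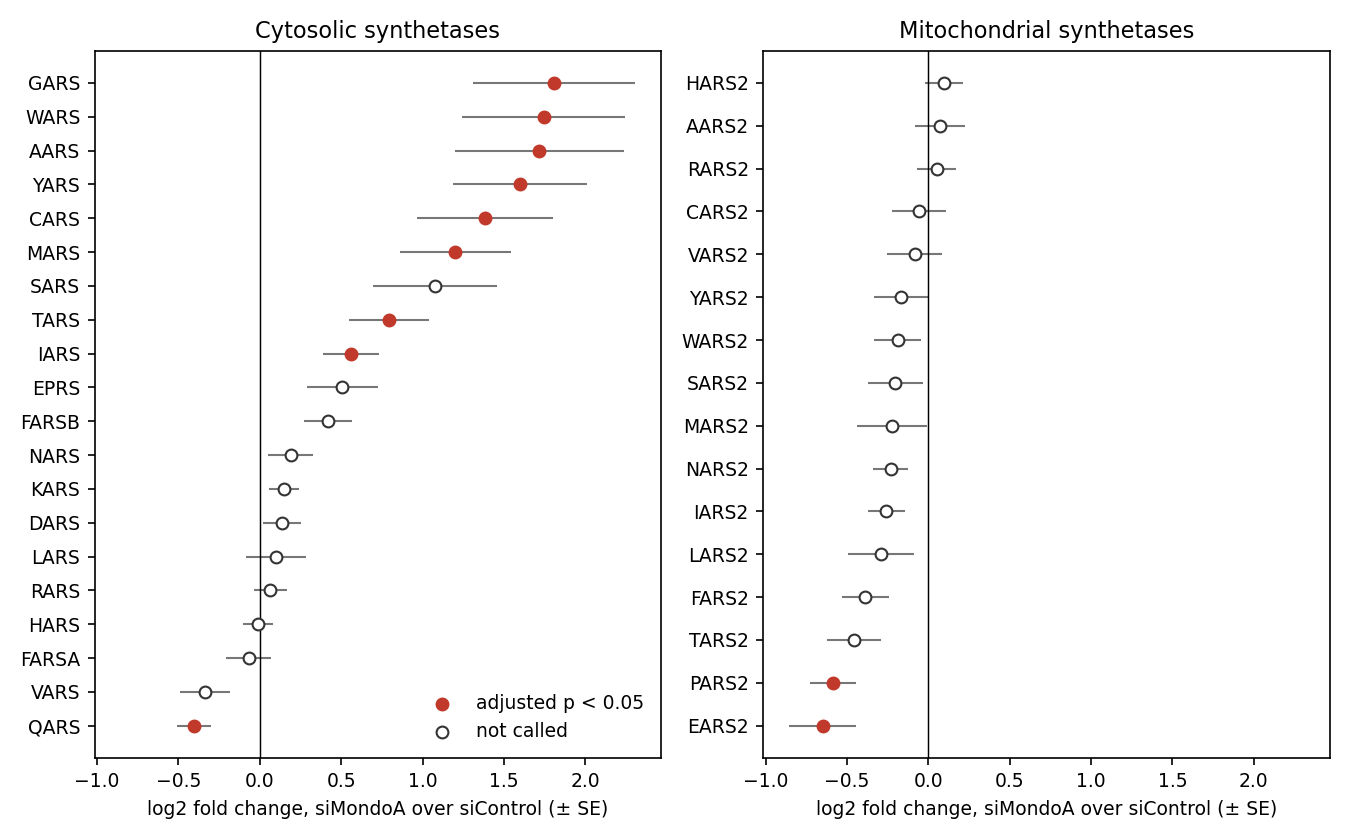
Log2 fold change (siMondoA over siControl, edgeR) of 20 cytosolic (left) and 16 mitochondrial (right) synthetase genes; bars are the standard error and filled points have an adjusted p under 0.05. The cytosolic genes run from -0.40 (QARS) to 1.81 (GARS), and the mitochondrial genes from -0.65 (EARS2) to 0.10 (HARS2).

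The genes with the greatest rise charge glycine, tryptophan, alanine, tyrosine, cysteine and methionine. GARS had 315, 903 and 548 CPM in siMondoA cells and 162, 175 and 168 CPM in siControl cells. All 3 knockdown libraries lay above the controls, replicate 2 far above the others (log2 fold change 1.81 ± 0.50 SE, adjusted p = 0.0239). WARS, the tryptophanyl-tRNA synthetase, which interferon also induces, had 171, 734 and 347 CPM in siMondoA cells and 128, 122 and 123 CPM in siControl cells (1.74 ± 0.50, adjusted p = 0.0278). Its rise was uneven, with replicate 1 close to the controls, and without replicate 2 the value was 1.06 (adjusted p = 0.110). AARS, the alanyl-tRNA synthetase, had 267, 781 and 581 CPM in siMondoA cells and 160, 176 and 159 CPM in siControl cells (1.72 ± 0.52, adjusted p = 0.0334). YARS, which charges tyrosine, had 272, 607 and 441 CPM in siMondoA cells and 145, 148 and 143 CPM in siControl cells (1.60 ± 0.41, adjusted p = 0.0181). In these genes, too, replicate 2 was highest and replicate 1 lowest.

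CARS, for cysteine, had 132, 217 and 200 CPM in siMondoA cells and 71.4, 71.6 and 67.6 CPM in siControl cells (1.38 ± 0.42, adjusted p = 0.0338). MARS, whose product charges both initiator and elongator methionyl-tRNA, had 169, 270 and 261 CPM in siMondoA cells and 95.3, 104 and 105 CPM in siControl cells (1.20 ± 0.34, adjusted p = 0.0261). The groups of both genes were separate, with 2 high libraries and 1 intermediate one. Of the exon bases of MARS, 7.38% lie opposite those of ARHGAP9 and 5.05% opposite those of DDIT3. DDIT3 is a stress gene whose transcript was also higher (log2 fold change 3.58). The sources used here do not give whether counting used strand, so reads from those bases cannot be assigned with certainty. The smaller rises were those of TARS (threonyl, 0.80 ± 0.25, adjusted p = 0.0363) and IARS (isoleucyl). IARS had 300, 429 and 397 CPM in siMondoA cells and 235, 251 and 277 CPM in siControl cells (0.56 ± 0.17, adjusted p = 0.0351), close to each other but without overlap.

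**Figure D2:**
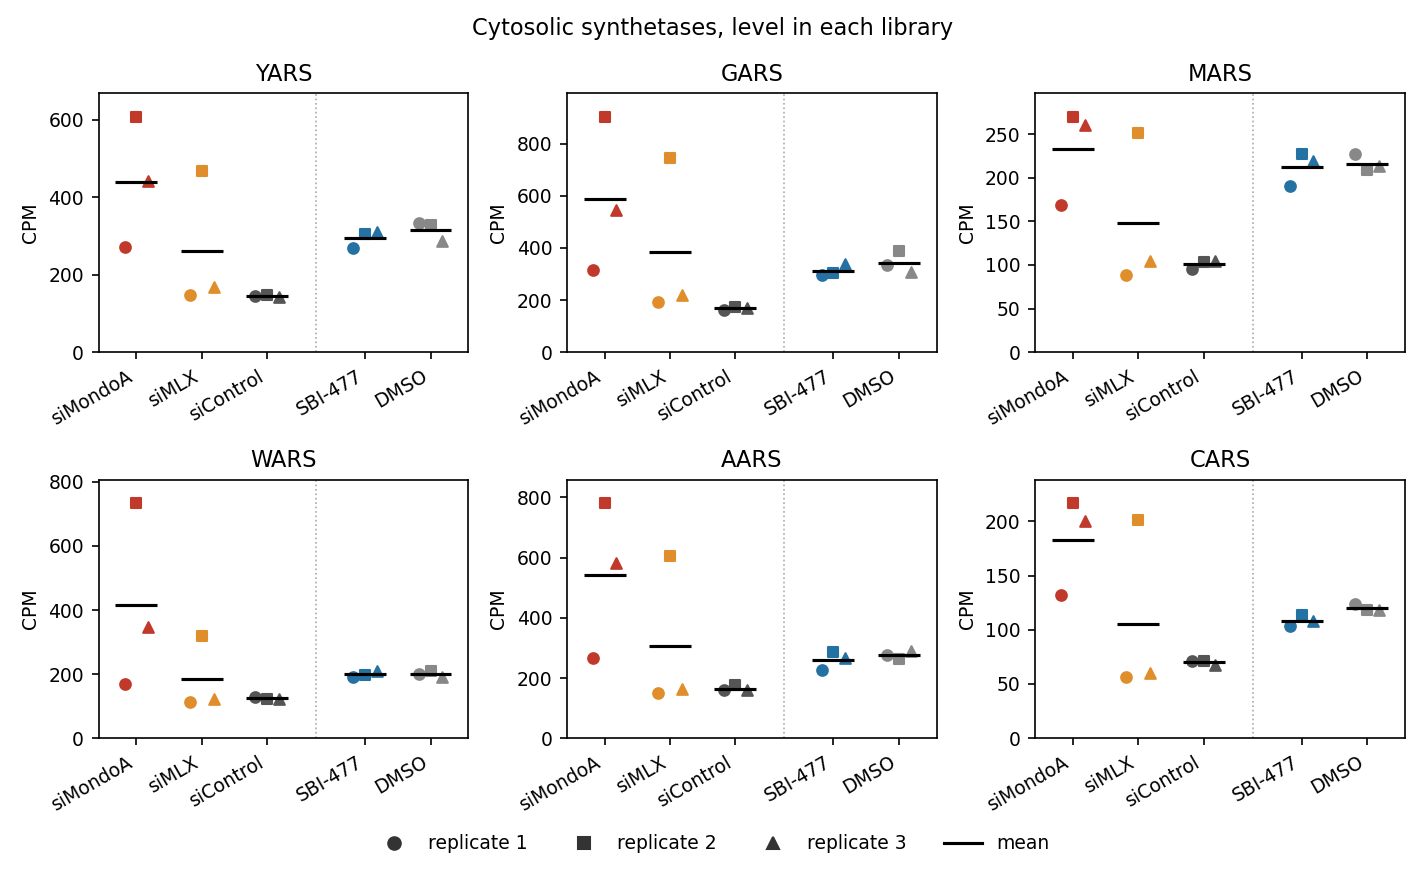
Level (CPM, linear axes from 0) of 6 cytosolic synthetase genes in each of the 15 libraries, with the group mean as a bar; the dotted line separates the siRNA and drug experiments. All 3 siMondoA libraries lie above the siControl libraries in each panel, and siMLX replicate 2 lies among or near the siMondoA libraries, while SBI-477 and DMSO libraries sit side by side.

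The promoters of the synthetase genes were searched for the CARE core and the E-box, the elements introduced above. RefSeq promoter windows (GRCh38.p14, 250 bases before to 50 after a start) matched 30 of the 36 genes, 16 cytosolic and 14 mitochondrial. Among the genes that rose, YARS had no window. The core TGATGNAA, read on either strand, was in the windows of 7 of 16 cytosolic genes (43.8%) and of 1 of 14 mitochondrial genes (7.14%), against 4.48% of all 27058 genes with a window. It was in 6 of the 7 cytosolic genes that rose and have a window, all but WARS, and in 1 of 8 that were not called, NARS. The sequences below show each cytosolic match in capitals with 11 bases on either side, 5′ to 3′ along the gene's own strand.
AARS (chr16:70289675-70289704, minus strand, match beginning 187 bases before the start): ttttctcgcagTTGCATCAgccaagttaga
CARS (chr11:3057407-3057436, minus strand, 2 bases before): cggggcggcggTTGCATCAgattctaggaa
GARS (chr7:30594834-30594863, plus strand, 33 bases before): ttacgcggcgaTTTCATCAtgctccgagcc
IARS (chr9:92293692-92293721, minus strand, 13 bases before): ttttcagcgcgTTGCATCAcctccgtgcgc
MARS (chr12:57488053-57488082, plus strand, 4 bases before): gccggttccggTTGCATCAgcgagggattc
TARS (chr5:33440956-33440985, plus strand, just after the start): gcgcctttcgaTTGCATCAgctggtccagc
NARS (chr18:57621804-57621833, minus strand, just after the start): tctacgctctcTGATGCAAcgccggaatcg

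The 6 genes that rose all carry the core in the reverse reading, in 5 of them as the same 8 letters, and in 5 of them within 33 bases of the start. NARS carries it in the forward reading; NARS, the asparaginyl-tRNA synthetase, had 218, 245 and 268 CPM in siMondoA cells and 204, 234 and 204 CPM in siControl cells, and these ranges overlapped. The E-box CACGTG was in the windows of 1 of 16 cytosolic genes (IARS) and 3 of 14 mitochondrial genes (CARS2, EARS2 and MARS2), against 8.72% of all genes with a window. EARS2 is shown because it is the gene of the 3 that fell, with the E-box in capitals.
EARS2 (chr16:23557349-23557376, minus strand): agggagaagccCACGTGtgctattccat
A pair of E-boxes 5 bases apart (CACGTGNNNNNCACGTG), the spacing of carbohydrate response elements, was in no member's window and in 2 of 27058 genes. Only these exact letters were searched, and pairs with any other letters were not counted. With so few matches among all genes, the absence of the pair cannot tell whether a member carries such an element. These matches describe letters in a window and were not tested as binding sites.

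QARS, the glutaminyl-tRNA synthetase of the multisynthetase complex, was the cytosolic gene that fell. It had 166, 172 and 163 CPM in siMondoA cells and 242, 220 and 201 CPM in siControl cells, with no overlap (log2 fold change -0.40 ± 0.10, adjusted p = 0.0171). The call was lost without siControl replicate 1, siControl replicate 2 or siMondoA replicate 3, with adjusted p between 0.0135 and 0.0684 over the 9 leave-outs. SARS, for serine, missed the threshold with 217, 599 and 357 CPM in siMondoA cells and 195, 192 and 170 CPM in siControl cells (1.08 ± 0.38, adjusted p = 0.0579, and 0.63 without siMondoA replicate 2), although every knockdown library was higher. FARSB, a subunit of the phenylalanyl enzyme, was also higher in every knockdown library (0.42 ± 0.15, adjusted p = 0.0559), and its partner subunit FARSA overlapped between groups (-0.07 ± 0.14, adjusted p = 0.739). KARS differed little, at 325, 335 and 327 CPM in siMondoA cells and 303, 306 and 281 CPM in siControl cells (0.15 ± 0.09, adjusted p = 0.240). The other genes not called had log2 fold changes between -0.33 (VARS) and 0.51 (EPRS). In the authors' deposited values SARS (adjusted p = 0.000255) and EPRS (adjusted p = 0.0207) pass the threshold, beside the genes that rose by edgeR.

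Grouped by where the enzyme works, a grouping made after the values were seen, the 8 members of the multisynthetase complex had a median log2 fold change of 0.14 with 2 risen and 1 fallen, and the 12 other cytosolic members had a median of 0.94 with 6 risen. By catalytic fold, 5 of 9 class I members and 3 of 10 class II members rose. Over all genes tested, 14.2% rose and 12.9% fell. Differences between these small groups of enzymes were not tested.

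Among the mitochondrial synthetases, PARS2 and EARS2 were called by edgeR. In the authors' deposited values EARS2 (adjusted p = 0.00449) and TARS2 (adjusted p = 0.0287) pass the threshold, and PARS2 (adjusted p = 0.0726) does not. PARS2, which charges proline, had 9.38, 10.7 and 9.77 CPM in siMondoA cells and 16.5, 15.0 and 13.4 CPM in siControl cells (-0.59 ± 0.14, adjusted p = 0.0138). EARS2, which charges glutamate, had 48.5, 27.9 and 35.0 CPM in siMondoA cells and 56.8, 56.3 and 61.9 CPM in siControl cells (-0.65 ± 0.20, adjusted p = 0.0386). Neither gene overlapped between groups. Of EARS2 exon bases, 6.46% lie opposite UBFD1.

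TARS2, for threonine, showed the same separation without passing the threshold, with 56.2, 43.7 and 53.6 CPM in siMondoA cells and 73.9, 67.2 and 69.8 CPM in siControl cells (-0.46 ± 0.17, adjusted p = 0.0627). FARS2, for phenylalanine, had 16.6, 12.7 and 13.8 CPM in siMondoA cells and 19.5, 19.6 and 17.2 CPM in siControl cells (-0.39 ± 0.14, adjusted p = 0.0682). IARS2 had 282, 248 and 294 CPM in siMondoA cells and 317, 336 and 332 CPM in siControl cells (-0.26 ± 0.11, adjusted p = 0.112). In these 3 genes every knockdown library was below every control. The log2 fold changes of 13 of the 16 mitochondrial genes were negative, and those of AARS2, HARS2 and RARS2 were between 0.05 and 0.10. PARS2 lost its call without siControl replicate 1 or siMondoA replicate 3, with adjusted p between 0.0120 and 0.0537 over the 9 libraries left out in turn. EARS2 lost its call without siMondoA replicate 2, siMondoA replicate 3, siMLX replicate 1 or any 1 of the 3 siControl libraries, with adjusted p between 0.00793 and 0.113.

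Cytosolic and mitochondrial genes were paired by symbol, with FARSA taken for FARS2, which gave 14 pairs. EPRS, which serves both glutamate and proline, was not paired with EARS2 or PARS2, the mitochondrial genes that fell after siMondoA. The log2 ratio of cytosolic to mitochondrial CPM was compared within each library. The ratio was higher in siMondoA cells than in siControl cells for 12 of 14 pairs, with no overlap between libraries for 10 of those, and the median change was 0.99. The YARS to YARS2 ratio changed by 1.71, WARS to WARS2 by 1.68 and AARS to AARS2 by 1.52. VARS to VARS2 went the other way, by -0.26 with no overlap, and 22.0% of VARS2 exon bases are shared with GTF2H4 on the same strand. HARS and HARS2, neighbours whose exons overlap over 11.7% of HARS2, changed by -0.11 with overlap between the groups. After siMLX the ratio was higher for 11 of 14 pairs, with 0 above and 1 below without overlap. After SBI-477 it was higher for 7 of 14, with 1 above and 2 below. Between siMondoA and siControl, 47.2% of single genes tested showed no overlap, and no such share was computed for ratios. The ratios reuse the gene values above and are not separate evidence.

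The size of the shift differed between libraries of 1 group. Relative to the siControl mean, the median cytosolic gene stood 0.18, 0.73 and 0.48 (log2 CPM) higher in siMondoA replicates 1, 2 and 3, and -0.10, 0.47 and 0.04 in siMLX replicates 1, 2 and 3. The median mitochondrial gene stood at -0.15, -0.35 and -0.15 in the siMondoA libraries and at 0.00, -0.10 and 0.18 in the siMLX libraries. Replicate 2 of each knockdown was thus the library with the highest cytosolic and the lowest mitochondrial median of its group. The 20 cytosolic transcripts together held 4374, 7788 and 6152 CPM in siMondoA cells, 3463, 6362 and 3815 CPM in siMLX cells, and 3618, 3846 and 3654 CPM in siControl cells.

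**Figure D3:**
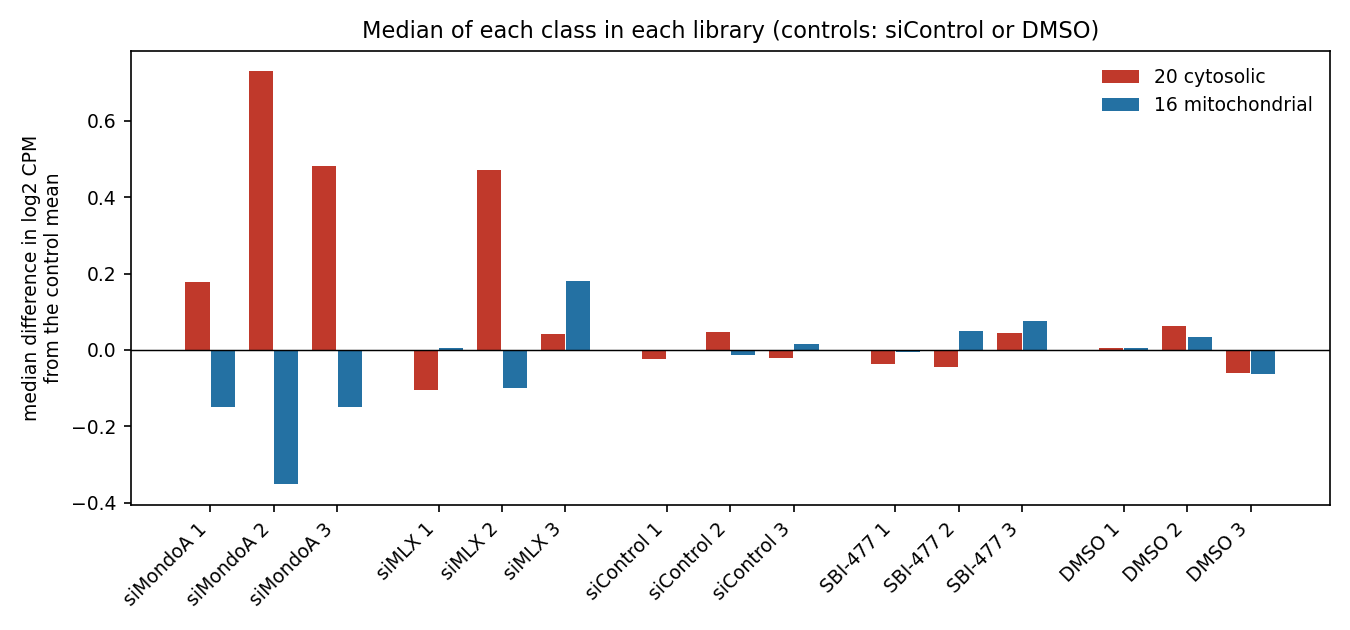
Median difference in log2 CPM from the control mean (siControl or DMSO) over 20 cytosolic and 16 mitochondrial synthetase genes, 1 pair of bars per library. Cytosolic bars reach 0.73 in siMondoA replicate 2 and 0.47 in siMLX replicate 2, with mitochondrial bars of -0.35 and -0.10 beside them, and all SBI-477 and DMSO bars stay within 0.08 of 0.

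Stress genes moved with the same libraries. ATF4 had 567, 836 and 627 CPM in siMondoA cells, 320, 696 and 336 CPM in siMLX cells, and 259, 320 and 254 CPM in siControl cells. ASNS, the asparagine synthetase and a known ATF4 target, had 87.7, 467 and 285 CPM in siMondoA cells, 16.4, 403 and 29.4 CPM in siMLX cells, and 20.5, 29.0 and 24.1 CPM in siControl cells. Of 8 charging-sensor and stress genes, 5 rose after siMondoA (ATF4, DDIT3, CEBPB, ASNS and TRIB3) and none fell, where 14.2% of all genes rose and 12.9% fell. The kinase gene EIF2AK4, which encodes GCN2, its partner GCN1 and ATF5 were not called. The part of these factors in the synthetase levels was not tested.

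Genes that work beside the synthetases were read against the same 27.2% of all genes called after siMondoA. Of the 3 scaffold proteins of the multisynthetase complex, AIMP2 fell, with 32.1, 23.5 and 27.5 CPM in siMondoA cells and 45.1, 39.0 and 37.4 CPM in siControl cells (-0.55 ± 0.16, adjusted p = 0.0273), and AIMP1 and EEF1E1 were not called. Of 5 further synthetases and kin, SEPSECS, which completes selenocysteine on its tRNA, rose (0.84 ± 0.27, adjusted p = 0.0434). Of 4 mitochondrial charging helpers, QRSL1, a subunit of the amidotransferase that makes mitochondrial glutaminyl-tRNA, rose (0.55 ± 0.18, adjusted p = 0.0412). No gene among 4 for tRNA maturation and proofreading was called by edgeR, and 1 of them had an unadjusted p under 0.05. Of 6 genes for delivery of charged tRNA, EIF2S2, the beta subunit of eIF2, rose (0.98 ± 0.27, adjusted p = 0.0258), and EEF1A1, the elongation factor that brings charged tRNA to the ribosome, fell (-0.33 ± 0.11, adjusted p = 0.0455).

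After MLX knockdown, no cytosolic synthetase was called risen by edgeR or by DESeq2, 2 fell and 1 mitochondrial gene rose, where 8.41% of all genes were called (3.72% rose and 4.69% fell). Unadjusted p was under 0.05 for 5 cytosolic genes. DARS, the aspartyl-tRNA synthetase, had 102, 97.0 and 86.6 CPM in siMLX cells and 144, 158 and 133 CPM in siControl cells (-0.61 ± 0.12, adjusted p = 0.0140). QARS had 175, 167 and 156 CPM in siMLX cells and 242, 220 and 201 CPM in siControl cells (-0.41 ± 0.10, adjusted p = 0.0356). Both genes were low in all 3 siMLX libraries. NARS2, the mitochondrial asparaginyl-tRNA synthetase, had 56.3, 57.5 and 64.5 CPM in siMLX cells and 41.6, 45.6 and 44.3 CPM in siControl cells (0.44 ± 0.11, adjusted p = 0.0334), high in all 3. In the authors' deposited values DARS (adjusted p = 0.000441) and QARS (adjusted p = 0.0218) fell too, and NARS2 (adjusted p = 0.0518) missed the threshold. The edgeR calls rested on few libraries. Over the 9 libraries left out in turn, DARS lost its call in 3 cases (siControl replicate 1, siControl replicate 2 or siMLX replicate 3, adjusted p up to 0.0689), and NARS2 and QARS in 6 each (adjusted p up to 0.128 and 0.140). NARS2 lost it without any 1 siControl library, siMondoA replicate 3, siMLX replicate 1 or siMLX replicate 3, and QARS without siControl replicate 1, siControl replicate 2, siMondoA replicate 3 or any 1 siMLX library. Without siMLX replicate 2, 6.27% of all genes passed. A replicate block raised the number of all genes called to 1815, against 1094 without it, and called the same 3 synthetases.

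Cytosolic genes that rose after siMondoA were uneven among the siMLX libraries. AARS had 149, 607 and 163 CPM in siMLX cells, CARS had 56.1, 201 and 59.8 CPM, and GARS had 193, 745 and 219 CPM. In each, replicates 1 and 3 were near the siControl levels given above and replicate 2 was near the siMondoA libraries. Of all genes tested, 33.4% showed no overlap between siMLX and siControl libraries, and 6 of 20 cytosolic and 2 of 16 mitochondrial genes did. The siMondoA and siMLX comparisons share the siControl libraries, so the values of QARS, lower in both, stand side by side and are not independent.

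Set directly against each other, siMondoA and siMLX cells differed in 1 gene of each class, where 12.9% of all genes were called (6.66% higher and 6.21% lower in siMondoA cells). Their libraries did not overlap for 2 of 20 cytosolic and 4 of 16 mitochondrial genes, where 30.2% of all genes tested did not. DARS was higher, with 140, 173 and 165 CPM in siMondoA cells and 102, 97.0 and 86.6 CPM in siMLX cells (0.74 ± 0.12, adjusted p = 0.00432). NARS2 was lower, with 39.6, 35.7 and 36.7 CPM in siMondoA cells and 56.3, 57.5 and 64.5 CPM in siMLX cells (-0.67 ± 0.11, adjusted p = 0.00438). DARS exons lie opposite those of DARS-AS1 over 7.60% of their bases. Without siMLX replicate 2, 10 cytosolic genes were higher in siMondoA cells (AARS 1.80, CARS 1.66, DARS 0.76, EPRS 0.62, GARS 1.51, MARS 1.27, SARS 1.17, TARS 0.75, WARS 1.83 and YARS 1.48 as log2 fold changes) and 6 mitochondrial genes were lower, while 12.6% of all genes were then called higher and 9.91% lower. The number of cytosolic genes higher in siMondoA than in siMLX cells therefore turned on that library.

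**Figure D4:**
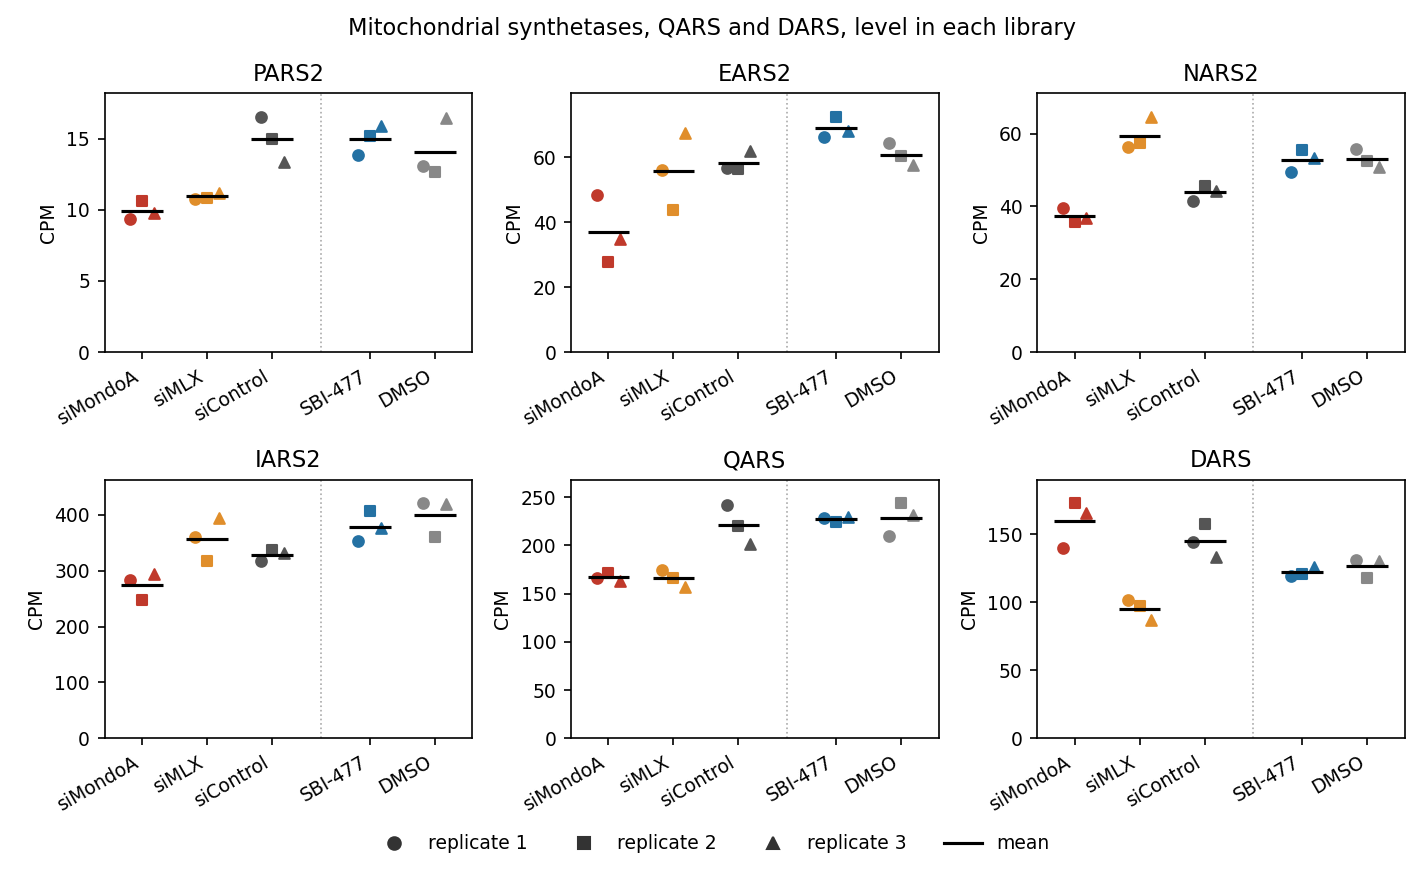
Level (CPM, linear axes from 0) of 4 mitochondrial synthetase genes and of QARS and DARS in each of the 15 libraries, with the group mean as a bar; the dotted line separates the experiments. PARS2, EARS2 and IARS2 are lower in all siMondoA than in all siControl libraries, NARS2 is higher and DARS lower in all siMLX libraries than in all siControl libraries, and QARS is lower after either siRNA.

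SBI-477 gave no call by edgeR in either class, as in all 14023 genes tested (0%), of which 409 had an unadjusted p under 0.05 and none was called by DESeq2. The median log2 fold change was 0.00 over the cytosolic and 0.07 over the mitochondrial genes, beside -0.01 over all genes. The cytosolic genes that rose after siMondoA had effects near 0. AARS had 226, 286 and 266 CPM in SBI-477 cells and 277, 264 and 288 CPM in DMSO cells (-0.09, 95% interval -0.36 to 0.17; -0.20 ± 0.10 from replicates 1 and 3 alone, adjusted p = 0.169). GARS had 297, 302 and 339 CPM in SBI-477 cells and 335, 388 and 309 CPM in DMSO cells (-0.14, 95% interval -0.41 to 0.14; -0.02 ± 0.09 from replicates 1 and 3 alone, adjusted p = 0.926). CARS, at 103, 114 and 108 CPM in SBI-477 cells and 124, 118 and 118 CPM in DMSO cells, was lower in each SBI-477 library, by an unadjusted p of 0.145.

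Among mitochondrial genes, MARS2 and LARS2 had an unadjusted p under 0.05. MARS2 had 41.2, 39.8 and 43.8 CPM in SBI-477 cells and 34.5, 30.8 and 30.5 CPM in DMSO cells (0.38 ± 0.11, unadjusted p = 0.00694, adjusted p = 1). LARS2 had 134, 127 and 139 CPM in SBI-477 cells and 120, 110 and 111 CPM in DMSO cells (0.23 ± 0.09, unadjusted p = 0.0380, adjusted p = 1; 0.24 ± 0.09 from replicates 1 and 3 alone, adjusted p = 0.0793). Every treated library was above every control in both, and also in EARS2 and WARS2. In all, 1 cytosolic and 4 mitochondrial genes showed no overlap, where 9.26% of all genes tested did.

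With replicates 1 and 3 of each group alone, 18.1% of 14232 genes tested were called, and 9.07% of the 14232 rose. Of the 36 synthetases 5 were called, all risen, and they were named after their values were seen. FARSA had 260, 249 and 320 CPM in SBI-477 cells and 195, 311 and 184 CPM in DMSO cells, so that replicate 2 of DMSO lay with the treated libraries (0.61 ± 0.11 without replicate 2, adjusted p = 0.00642). HARS had 251, 228 and 264 CPM in SBI-477 cells and 212, 295 and 194 CPM in DMSO cells (0.34 ± 0.09 without replicate 2, adjusted p = 0.0252). RARS rose by the same fit (0.28 ± 0.08, adjusted p = 0.0436). CARS2 had 74.2, 60.5 and 93.1 CPM in SBI-477 cells and 54.3, 100.3 and 48.6 CPM in DMSO cells (0.70 ± 0.12 without replicate 2, adjusted p = 0.00587), and MARS2 gave 0.39 ± 0.10 (adjusted p = 0.0254). In the authors' deposited table, where 10.6% of 14656 genes have a positive fold change and an adjusted p under 0.05, FARSA (0.51), HARS (0.36), RARS (0.33) and CARS2 (0.72) do so too, and no other member does. None of the 8 cytosolic genes that rose after siMondoA was called after SBI-477 in any of these 3 sets of values.

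The difference between the SBI-477 effect and the siMondoA effect was tested as an interaction in 1 fit of both experiments. It was below 0 for 7 cytosolic genes (AARS, CARS, GARS, MARS, TARS, WARS and YARS) and above 0 for 1 mitochondrial gene (EARS2), where 10.4% of 14065 genes were called, 5.65% below 0 and 4.74% above. GARS differed by -1.93 ± 0.37 (adjusted p = 0.00685), AARS by -1.80 ± 0.37 (adjusted p = 0.0103) and YARS by -1.68 ± 0.30 (adjusted p = 0.00417). CARS differed by -1.52 ± 0.21 (adjusted p = 0.00112) and MARS by -1.22 ± 0.22 (adjusted p = 0.00458). These 5 genes stayed past the threshold when any 1 of the 12 libraries was left out and with replicates 1 and 3 of the drug experiment alone. TARS and WARS did not: each lost its call in most of the leave-outs, with adjusted p up to 0.104 and 0.0824. EARS2 differed by 0.85 ± 0.22 (adjusted p = 0.0279), and kept its call in 4 of 12 leave-outs. Without siMondoA replicate 2 the WARS difference was -1.07, against -1.74 with it. The interaction fit shares 1 estimate of spread per gene over its 12 libraries, which do not include siMLX. Its errors for GARS, AARS, YARS, CARS and MARS were smaller than those of siMondoA against siControl. In that simpler comparison AARS, CARS, GARS and MARS kept their call in 4 of 9 leave-outs, and YARS in 5. Each effect was taken against the controls of its own table, and the tables may not have been counted alike: EEF1A1 stood at 12351 to 18435 CPM in the siRNA libraries and at 710 to 1098 CPM in the drug libraries. Counting, library depth, and transfection against addition of a compound cannot be told apart from the agents.

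**Figure D5:**
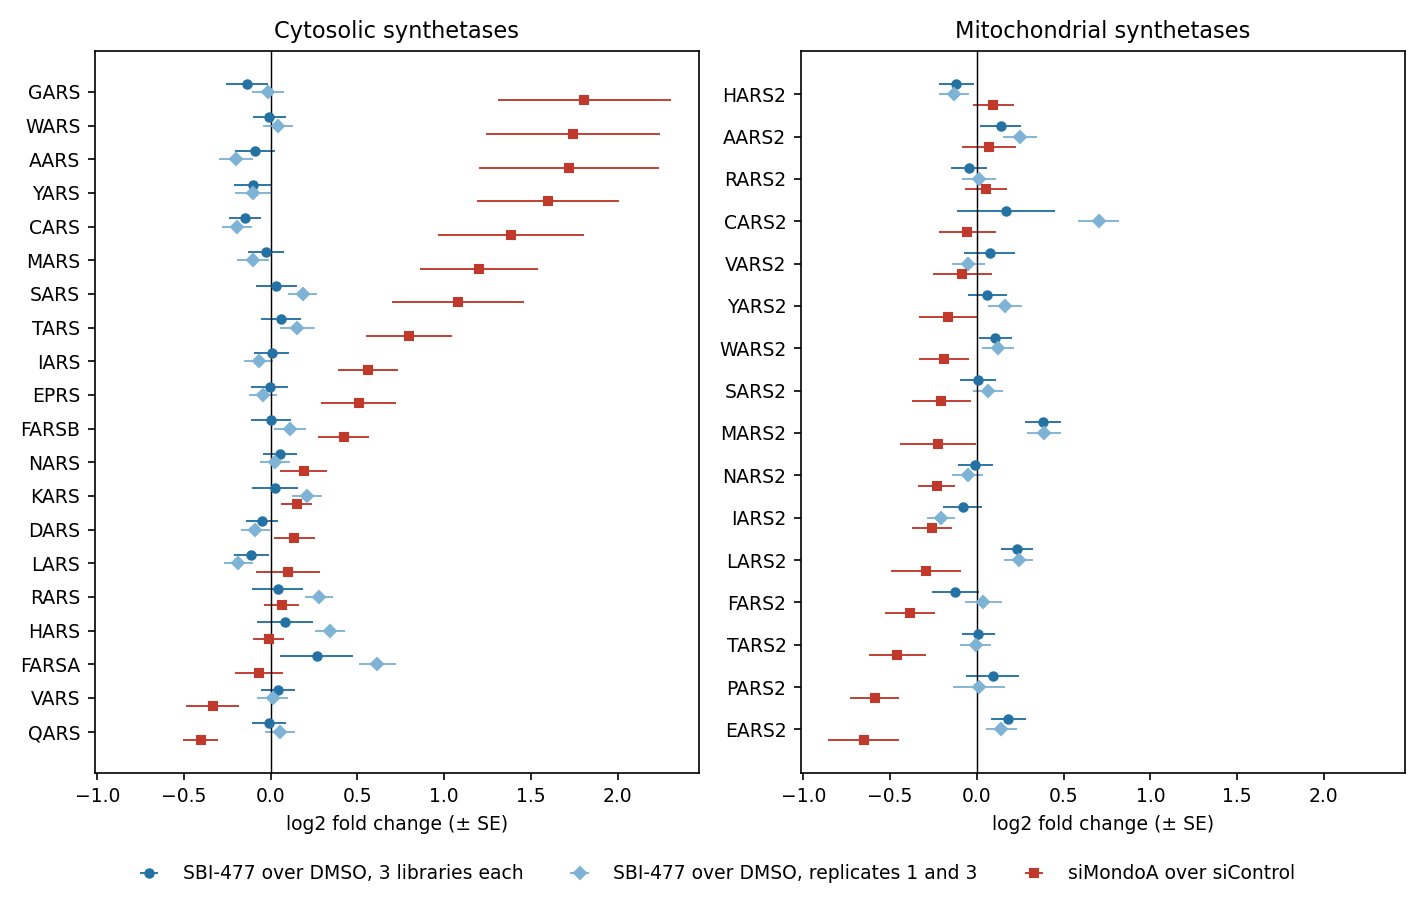
Log2 fold change with its standard error for each synthetase gene after SBI-477 (all 3 libraries a group, and replicates 1 and 3 alone) and after siMondoA, genes ordered by the siMondoA value. The drug values lie between -0.21 and 0.70, while siMondoA values reach 1.81 among the cytosolic genes.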

How the data were processed

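Per the labels' protocols, RNA of PSN-1 cells was sequenced as paired short reads on an Illumina instrument. TopHat2 2.1.0 and HTSeq 0.6.1 are among the tools, and hg38 among the builds, in the submitters' processing notes; the sources used here give no strand setting. The authors deposited raw counts per gene and library, with their own log2 fold changes and p-values, per the file headers; values from those columns are named as the authors'.

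Counts were tested with edgeR 4.0.16 in R 4.3.3 (filterByExpr, TMM, quasi-likelihood test, adjusted p under 0.05, Benjamini-Hochberg over all genes tested): the 9 siRNA libraries in 1 fit, the 6 drug libraries in another, and 12 libraries for the interaction. Standard errors were taken from the fold change and its F statistic. CPM was scaled by TMM within each experiment, and log2 CPM used a prior count of 2. Levels of the 2 tables are not compared, except for EEF1A1, which is given because the tables may not have been counted alike. Levels per kb used GENCODE exon lengths (GRCh38). DESeq2 1.42.0, RLE scaling, no filter, a replicate term and each library left out were alternatives. Deviations of same-numbered siControl and siMLX libraries correlated by 0.29, 0.21 and 0.38, all above 0.1, so their numbers were taken as pairs, from the data and not the labels. The fits reported, siMLX included, still have no replicate term, and the replicate block is an alternative. The authors' siMondoA and siMLX fold changes matched DESeq2 with a replicate term, to median absolute differences of 2.27e-13 and 2.21e-13 (log2). The edgeR script was first tested on simulated data.

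Library values were given for up to 8 cytosolic and 6 mitochondrial genes with the smallest adjusted p after siMondoA, up to 4 of each class in the other comparisons, GARS and KARS; NARS, SARS, FARSA, HARS and CARS2 were added after their values were seen. The members and the lists were chosen with earlier results of these data known.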

Additional observations from a re-analysis of the deposited data

Results flagged for a closer look

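For 8 synthetase genes the SBI-477 effect differed from the siMondoA effect by edgeR's interaction test, each effect taken against its own controls. As SBI-477 effect minus siMondoA effect on the log2 scale, the difference was -1.93 for GARS, -1.80 for AARS, -1.74 for WARS, -1.68 for YARS, -1.52 for CARS, -1.22 for MARS and -0.72 for TARS. All 7 are cytosolic genes that rose after siMondoA, and their own SBI-477 effects lay between -0.15 (CARS) and 0.06 (TARS). EARS2 was the mitochondrial gene, with a difference of 0.85, made of an SBI-477 effect of 0.18 and a siMondoA effect of -0.65. With replicates 1 and 3 of the drug experiment alone the differences were -1.80 (GARS), -1.90 (AARS), -1.68 (YARS), -1.56 (CARS), -1.28 (MARS) and 0.82 (EARS2), all past the threshold, and -1.68 (WARS) and -0.62 (TARS), with adjusted p of 0.0612 and 0.0812.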

How the results depend on the processing

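With 1 library left out at a time, after siMondoA, 0 to 11 cytosolic genes rose and 0 to 3 mitochondrial genes were called. After siMLX, 0 to 0 cytosolic genes rose, 0 to 2 fell and 0 to 1 mitochondrial genes were called. Between siMondoA and siMLX, 1 to 10 cytosolic genes were higher and 1 to 6 mitochondrial genes called, both highest without siMLX replicate 2. In the interaction, 5 to 10 cytosolic genes lay below 0, 0 to 2 lay above 0, and 0 to 3 mitochondrial genes were called. Of all genes tested, 13.2% to 32.9% were called after siMondoA and 1.93% to 10.5% after siMLX. Between siMondoA and siMLX 5.08% to 22.5% were called, and in the interaction 5.62% to 15.3%. The medians after siMondoA kept their signs in all 9 leave-outs. With 1 library left out, the group left with 2 is assumed to vary like the others.

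Numbers were taken as pairs for siMLX and siControl alone. Elsewhere not every same-numbered pair exceeded 0.1: deviations correlated between 0.01 and 0.14 for siMondoA with siControl, -0.12 and 0.57 for siMondoA with siMLX, and -0.58 and -0.27 in the drug experiment. With the replicate block, 11 cytosolic genes rose and 2 fell after siMondoA and 3 mitochondrial genes fell (4551 genes called in all, against 3532). Between siMondoA and siMLX, 2 cytosolic genes were then higher and 3 mitochondrial genes called, and the interaction called 5 cytosolic genes below 0 and 0 mitochondrial genes. Over all genes the block called 1815 genes after siMLX (1094 without it), 2606 between siMondoA and siMLX (1673) and 513 in the interaction (1462). As shares of the genes tested, the block called 35% after siMondoA, 14% after siMLX, 20% between them and 3.65% in the interaction.

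DESeq2 called 3 mitochondrial genes between siMondoA and siMLX, where it called 17.7% of all genes. In the interaction it called 9 cytosolic genes below 0, 1 above 0 and 4 mitochondrial genes, and 15% of all genes. Without the filter, 0 mitochondrial genes were called after siMLX. RLE scaling kept every count of members called. With replicates 1 and 3 of the drug experiment alone, 3 cytosolic genes rose and 2 mitochondrial genes were called after SBI-477, by edgeR and also by DESeq2. The shares of all genes called were 18.1% and 16.2%, and the DESeq2 setting was chosen after seeing the data. In the interaction with these replicates, 5 cytosolic genes lay below 0, 2 lay above 0 and 2 mitochondrial genes were called, with 17.4% of all genes. The causes were not tested. Intervals and errors cover the spread between libraries, and the low counts of PARS2, VARS2 and FARS2 limit their precision.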

Other observations

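Some genes that work beside the synthetases were also called in the other siRNA comparisons. Between siMondoA and siMLX cells, 1 of 3 scaffold genes and 1 of 4 mitochondrial charging helpers were called, where 12.9% of all genes were. AIMP2, a scaffold of the multisynthetase complex, was lower in siMondoA cells (32.1, 23.5 and 27.5 CPM) than in siMLX cells (46.6, 37.5 and 50.6 CPM; log2 fold change -0.70, adjusted p = 0.0179 by edgeR). MTFMT, which formylates mitochondrial initiator methionyl-tRNA, was also lower in siMondoA than in siMLX cells (-0.51, adjusted p = 0.0455). EEF1A2, a tissue-restricted elongation factor, fell after siMLX, with 195, 209 and 139 CPM in siMLX cells and 357, 273 and 297 CPM in siControl cells (-0.77, adjusted p = 0.0408). EEF1A2 was the 1 gene called after siMLX of 6 for delivery of charged tRNA, where 8.41% of all genes were called. No delivery gene was called between siMondoA and siMLX cells.

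After SBI-477 the stress genes gave different calls in different sets of values, and the labels of replicate 2 are in doubt. As labelled, no stress gene was called by edgeR. ATF4 had 247, 299 and 251 CPM in SBI-477 cells and 351, 358 and 319 CPM in DMSO cells, lower in every treated library (unadjusted p = 0.0118, adjusted p = 1, edgeR). From replicates 1 and 3 alone, ATF4 (-0.43), ASNS (-0.50) and TRIB3 (-0.40) fell, with adjusted p of 0.0105, 0.0349 and 0.0345 by edgeR, and ATF5 rose (0.96, adjusted p = 0.00229). ATF5 had 65.0, 44.7 and 74.7 CPM in SBI-477 cells and 40.5, 82.3 and 31.2 CPM in DMSO cells, so that replicate 2 of each group lay with the other group. In the authors' deposited table ATF4 (-0.17), ASNS (-0.04) and TRIB3 (-0.08) have adjusted p of 0.455, 0.956 and 0.783, and ATF5 has 0.94 (adjusted p = 2.88e-08). Among these sets of values, ATF4, ASNS and TRIB3 were thus called lower only from replicates 1 and 3 alone. ATF4 itself was also lower as labelled, without a call. The authors' values matched DESeq2 with a replicate term and replicate 2 exchanged, so method and labels both differ from the edgeR fits.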
